A study of Mus musculus with 10 samples.

Results

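The RNA of hemoglobin and of Alas2 was examined in the tibialis anterior, a mostly fast-twitch shin muscle, of mice with and without Lewis Lung Carcinoma (LLC) tumors. The 5 genes were taken by name, with earlier results of these data known. They are the alpha-globin genes Hba-a1 and Hba-a2, the beta-globin genes Hbb-bs and Hbb-bt, and Alas2. Alas2 encodes the erythroid form of 5-aminolevulinate synthase. The symbols of the 5 genes were matched to 5 of the 39179 gene identifiers listed in every library. All 5 passed the filter on low counts, which left 12690 genes. The muscle came from 4 Control mice, injected with buffer in both flanks, and from 6 LLC mice, injected with cells of a mouse lung cancer line under the skin of both flanks, whose tumors bring on cachexia, a loss of body weight and muscle. The sample labels give the C57BL/6J strain and an age of 10 weeks at injection. They give 23 days of tumor development for the LLC mice and 0 for the Control mice. The series text gives C57BL/10 males, 8 weeks and 22 days for the same study, so strain, age and day remain as these sources state them. No transgene or deletion is named for either group. According to the methods, the LLC mice sequenced were those that had lived through the whole experiment, and no step that clears blood from the muscle is described in the sources used here.

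Hemoglobin, the oxygen carrier of red cells, is built from alpha and beta chains that each hold a heme group. Adult mice carry a pair of alpha-globin genes and a pair of beta-globin genes, each pair being near copies of each other. Alas2 makes the first and rate-limiting enzyme of heme synthesis in developing red cells, and Alas1 makes its counterpart in other tissues. Mature red cells of mammals have no nucleus, whereas reticulocytes, the young red cells newly released into blood, still contain globin RNA and some Alas2 RNA. In a whole muscle, globin RNA is therefore usually read as coming from blood in the vessels. In such bulk libraries, more blood cells and more RNA in each blood cell cannot be told apart.

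The 10 libraries held 16693209 to 21303084 counts, so that 3 counts, taken as the lowest detected level, equaled 0.148 to 0.174 CPM (the count over the library total, scaled by the trimmed mean of M values, TMM). All 10 were sequenced in 1 lane, which left no sequencing batches to compare within. Mitochondrially encoded genes took 28.5 to 30.7% of counts in Control and 22.0 to 27.9% in LLC, without overlap. Skeletal muscle markers other than Tnnc2 were abundant in every library. Tnnc2, a fast troponin, stood at 5.88 ± 0.350 CPM in Control and 4.90 ± 1.20 CPM in LLC (SD, n = 4 and 6). Myh4, a fast myosin, stood at 39820 ± 1140 CPM in Control and 43680 ± 9048 CPM in LLC (SD, n = 4 and 6). Myh4 was 1 of 2 markers higher in sign in LLC, and 8 of the 10 were lower, with a median log2 fold change of -0.18. The library LLC 1 stood apart, as its 10 muscle markers summed to 97420 CPM against 134600 to 151000 CPM in the other LLC libraries, and results are given without it where it changed them. In edgeR's quasi-likelihood test, 715 of 12690 genes (5.63%) passed the threshold, set at 0.05 for the Benjamini-Hochberg adjusted p and at a 1.5-fold change.

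The globin genes lie in pairs on genome build GRCm38 (mm10). Hba-a1 (ENSMUSG00000069919, chr11:32283511-32284465) and Hba-a2 (ENSMUSG00000069917, chr11:32296489-32297298) are on the plus strand. Hbb-bs (ENSMUSG00000052305, chr7:103826534-103828096) and Hbb-bt (ENSMUSG00000073940, chr7:103812524-103813996) are on the minus strand. None of the 4 shares exons with another annotated gene. Alas2 (ENSMUSG00000025270, chrX:150547375-150570638, plus strand) has exons that overlap Apex2 and Mir3620 on the opposite strand. The strand setting behind the counts is not named in the sources used here beyond the default settings of HTSeq, the counting program. Apex2, a DNA repair gene, stood at 4.69 ± 0.142 CPM in Control and 3.82 ± 0.782 CPM in LLC (SD, n = 4 and 6), with a log2 fold change of -0.29 (edgeR, Benjamini-Hochberg adjusted p = 0.231).

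How far the copies can be told apart limits what their counts mean. Within each pair the coding sequences, of 426 bases in the alpha genes and 441 in the beta genes, differ at 1 base. The change is C381T from Hba-a1 to Hba-a2 and C417T from Hbb-bs to Hbb-bt, with positions counted from 1 at the A of the start codon and the base of the first-named gene written first. Both fall on the third base of a codon and leave its meaning as it was. The stretches around them are shown because within the coding sequence a read alone tells the copies apart only at that base, given in capitals (GENCODE release M21, bases 341 to 421 of the alpha and 377 to 441 of the beta coding sequences).
Hba-a1: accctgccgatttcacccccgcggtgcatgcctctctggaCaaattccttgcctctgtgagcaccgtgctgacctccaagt
Hba-a2: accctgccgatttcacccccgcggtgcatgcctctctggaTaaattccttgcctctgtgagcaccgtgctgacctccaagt
Hbb-bs: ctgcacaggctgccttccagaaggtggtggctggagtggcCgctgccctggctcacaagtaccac
Hbb-bt: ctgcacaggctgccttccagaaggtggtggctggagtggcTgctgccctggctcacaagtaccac

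Of all stretches of 100 bases, the read length, in the annotated transcripts of Hba-a1, 36.7% (261 of 711) occur in no other gene's transcripts, and the share is 20.5% (116 of 566) for Hba-a2. It is 50.3% (335 of 666) for Hbb-bs, 45.2% (273 of 604) for Hbb-bt and 100% (2398 of 2398) for Alas2. Most of the coding sequence is shared, with 14.1% of the 100-base stretches of an alpha gene and 7.31% of those of a beta gene absent from the partner. These shares are for single reads, and since the reads were paired, a mate outside the shared sequence can place more of them. HTSeq by default leaves out reads that align to more than 1 place, so the counts of the 4 globin genes may miss part of their RNA, and the split within a pair is uncertain. Counts of each pair were therefore also added and fitted as 1 gene.

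Promoters of red cell genes often hold a few short sequences that bind erythroid or general transcription factors. The windows below run from 250 bases before to 50 after the RefSeq start on GRCm38.p6 and are written 5′ to 3′ on the gene's strand. Capitals mark, on either strand, TGATAA or AGATAA (the core bound by GATA factors), CACCC (bound by Klf1 and related factors), CCAAT and TATAA. Matches that overlap each other run together. Hba-a1 is at chr11:32283422-32283721, Hbb-bs at chr7:103827879-103828178, Hbb-bt at chr7:103813874-103814173 and Alas2 at chrX:150547167-150547466. They are shown because the globin genes moved together across the muscles, with Alas2 following less closely, as described below. Whether these sequences have a part in that was not tested.
Hba-a1: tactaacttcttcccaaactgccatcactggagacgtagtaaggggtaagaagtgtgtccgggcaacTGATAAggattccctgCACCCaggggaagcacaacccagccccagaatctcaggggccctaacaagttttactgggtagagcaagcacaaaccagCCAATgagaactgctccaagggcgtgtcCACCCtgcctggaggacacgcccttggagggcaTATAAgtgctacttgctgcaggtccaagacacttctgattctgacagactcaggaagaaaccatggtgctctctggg
Hbb-bs: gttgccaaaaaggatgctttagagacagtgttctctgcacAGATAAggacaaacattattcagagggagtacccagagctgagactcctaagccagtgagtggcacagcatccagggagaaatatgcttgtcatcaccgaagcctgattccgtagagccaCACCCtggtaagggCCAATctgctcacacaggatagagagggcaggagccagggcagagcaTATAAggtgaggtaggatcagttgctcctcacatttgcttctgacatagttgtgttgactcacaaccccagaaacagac
Hbb-bt: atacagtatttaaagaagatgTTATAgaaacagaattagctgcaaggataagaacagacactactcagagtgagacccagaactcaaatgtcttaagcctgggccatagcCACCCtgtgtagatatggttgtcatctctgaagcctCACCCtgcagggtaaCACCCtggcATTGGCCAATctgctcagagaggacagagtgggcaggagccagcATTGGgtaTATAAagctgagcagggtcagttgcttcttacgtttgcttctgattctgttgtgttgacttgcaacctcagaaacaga
Alas2: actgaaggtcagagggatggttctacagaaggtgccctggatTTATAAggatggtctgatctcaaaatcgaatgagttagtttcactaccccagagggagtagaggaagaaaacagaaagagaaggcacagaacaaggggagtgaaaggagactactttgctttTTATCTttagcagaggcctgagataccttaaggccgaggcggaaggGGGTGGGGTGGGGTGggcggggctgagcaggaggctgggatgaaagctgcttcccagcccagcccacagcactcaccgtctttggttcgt

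The window of Hba-a2 is 98.0% identical to that of Hba-a1 over 303 aligned columns, and those of Hbb-bs and Hbb-bt are 71.3% identical over 307. The GATA core was found once in Hba-a1, Hba-a2, Hbb-bs and Alas2 and not in Hbb-bt, and it occurs in 18.6% of 32851 promoter windows of the mouse. CACCC was found in all 5 windows, 3 times each in Hbb-bt and Alas2, and in 57.5% of all windows. CCAAT was found in the 4 globin windows and not in Alas2, and in 37.4% of all windows, whereas TATAA was found in all 5 and in 24.9%. These matches describe the letters in these windows only.

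Beta-globin and Alas2 RNA was more abundant in the LLC muscles. Of the 5 genes, Hbb-bs, Hbb-bt and Alas2 rose past the threshold, by 1.63-, 1.72- and 2.19-fold, where 1.65% of all tested genes did so in this direction. Hba-a1 and Hba-a2 had fold changes of 1.44 and 1.31 and did not pass. The median log2 fold change of the 5 was 0.71, beside 0.002 for all genes tested. The 4 globin genes together took 57.7 to 81.0 CPM in Control and 86.3 to 140.0 CPM in LLC, so the groups did not overlap.

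**Figure D1:**
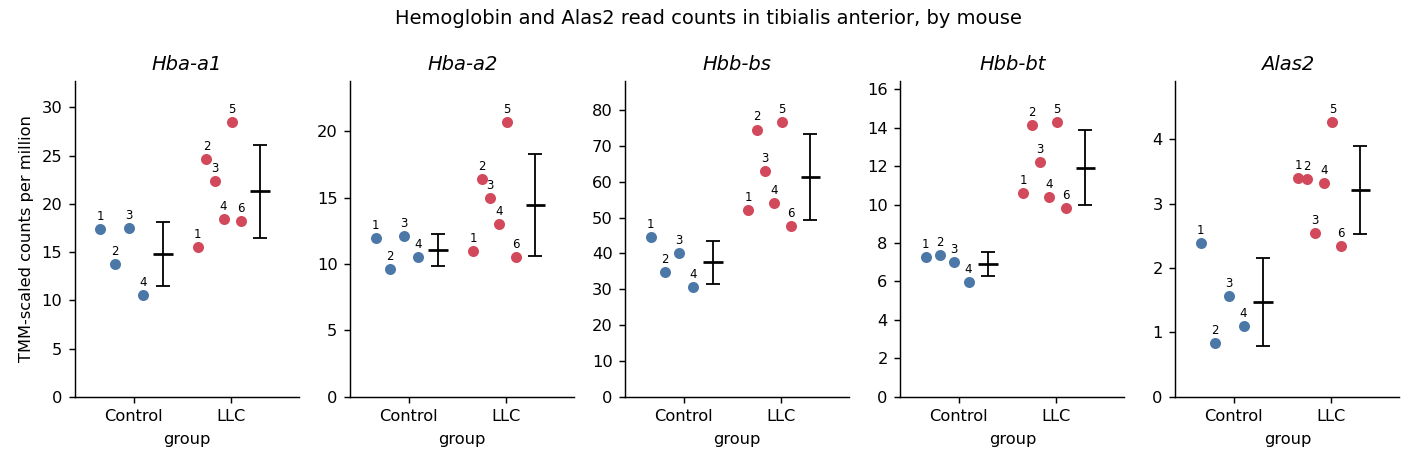
TMM-scaled CPM of the 5 genes (y axis, linear, from 0) in Control (blue, n = 4) and LLC (red, n = 6), with 1 numbered point per mouse and the mean and SD beside the points. For Hbb-bs and Hbb-bt every LLC point lies above every Control point, and LLC 5 is the highest for all 5 genes.

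The alpha-globin genes showed the smallest differences of the 5. Hba-a1 stood at 17.4, 13.8, 17.5 and 10.6 CPM in Control 1 to 4, and in the 6 LLC muscles it ran from 15.5 to 28.5 CPM with a median of 20.4 CPM. Of the 6 LLC values, 5 exceeded every Control value, and LLC 1 lay below Control 1 and Control 3. Its means were 14.8 ± 3.30 CPM in Control and 21.3 ± 4.79 CPM in LLC (SD, n = 4 and 6). The log2 fold change of 0.52 ± 0.19 (SE, 95% interval 0.11 to 0.94) did not pass (edgeR, Benjamini-Hochberg adjusted p = 0.112). Without LLC 1 it was 0.61 and passed (adjusted p = 0.0303 in the same edgeR test).

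Hba-a2 stood at 11.9, 9.63, 12.1 and 10.5 CPM in Control 1 to 4, and its LLC values ran from 10.5 to 20.7 CPM with a median of 14.0 CPM. The groups overlapped more than for its partner, with 4 of the 6 LLC muscles above every Control and with LLC 1 and LLC 6 below the Control mean. The means were 11.04 ± 1.18 CPM in Control and 14.4 ± 3.82 CPM in LLC (SD, n = 4 and 6). The log2 fold change was 0.39 ± 0.18 (SE, 95% interval -0.01 to 0.79; edgeR, Benjamini-Hochberg adjusted p = 0.193). With the counts of both alpha genes added, it was 0.47 ± 0.18 (SE) and did not pass either (edgeR, Benjamini-Hochberg adjusted p = 0.127).

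The beta-globin genes were separated more clearly. Hbb-bs, the most abundant of the 5 also per length, stood at 44.5, 34.9, 40.2 and 30.6 CPM in Control 1 to 4 and ran from 47.7 to 76.6 CPM in LLC, with a median of 58.5 CPM. All 6 LLC muscles exceeded every Control muscle, a pattern shown by 6.4% of all tested genes, and 16% of genes had no overlap in either direction. It rose from 37.6 ± 6.06 CPM in Control to 61.4 ± 12.1 CPM in LLC (SD, n = 4 and 6). Its log2 fold change was 0.71 ± 0.16 (SE, 95% interval 0.36 to 1.06; edgeR, Benjamini-Hochberg adjusted p = 0.0221). The call was kept in 7 of the 10 leave-one-out fits. It was lost without Control 2, Control 3 or Control 4, with adjusted p-values of 0.0747, 0.0592 and 0.0832 in the edgeR test.

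Hbb-bt, the less abundant copy, had the narrowest Control spread of the 5, with an SD of 9.22% of the mean, at 7.26, 7.36, 7.03 and 5.97 CPM in Control 1 to 4. Its LLC values ran from 9.84 to 14.3 CPM with a median of 11.4 CPM, again all above every Control value. It rose from 6.90 ± 0.637 CPM in Control to 11.9 ± 1.95 CPM in LLC (SD, n = 4 and 6). Its log2 fold change was 0.78 ± 0.14 (SE, 95% interval 0.49 to 1.08; edgeR, Benjamini-Hochberg adjusted p = 0.0053). This was the smallest adjusted p of the 5 genes, and the call was kept in all 10 leave-one-out fits. With the counts of both beta genes added, the log2 fold change was 0.72 ± 0.15 (SE; edgeR, Benjamini-Hochberg adjusted p = 0.0172).

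Alas2 was the least abundant of the 5, also per length, and had the largest fold change. It stood at 2.38, 0.840, 1.57 and 1.10 CPM in Control 1 to 4 and ran from 2.35 to 4.26 CPM in LLC, with a median of 3.36 CPM. Control 1 was higher than the other Control muscles and slightly above LLC 6, so that 5 of the 6 LLC muscles exceeded every Control. Alas2 rose from 1.47 ± 0.678 CPM in Control to 3.21 ± 0.688 CPM in LLC (SD, n = 4 and 6). Its log2 fold change was 1.13 ± 0.27 (SE, 95% interval 0.53 to 1.73; edgeR, Benjamini-Hochberg adjusted p = 0.0304). Of all tested genes, 98.2% had a smaller fold change. These values rest on 17 to 86 counts per library, for which counting error alone is 24.3% at the lowest and 10.8% at the highest, against 4.23% for the lowest Hbb-bs count of 559. The call was kept in 6 of the 10 leave-one-out fits, and it was lost without Control 2, Control 3, Control 4 or LLC 5 (edgeR adjusted p-values of 0.0875, 0.0815, 0.105 and 0.0651). Leaving out 1 Control library also lowered the number of genes called in all, to between 415 and 438. Without LLC 1, the library that stood apart, the log2 fold changes of Hba-a2, Hbb-bs, Hbb-bt and Alas2 were 0.46, 0.76, 0.82 and 1.13.

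The same 3 genes passed with the other test. Under the DESeq2 Wald test, which called 3.06% of genes as higher, Hbb-bs, Hbb-bt and Alas2 passed with adjusted p-values of 0.00101, 1.5e-05 and 0.00183, and Hba-a1 and Hba-a2 did not, at 0.0643 and 0.171.

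**Figure D2:**
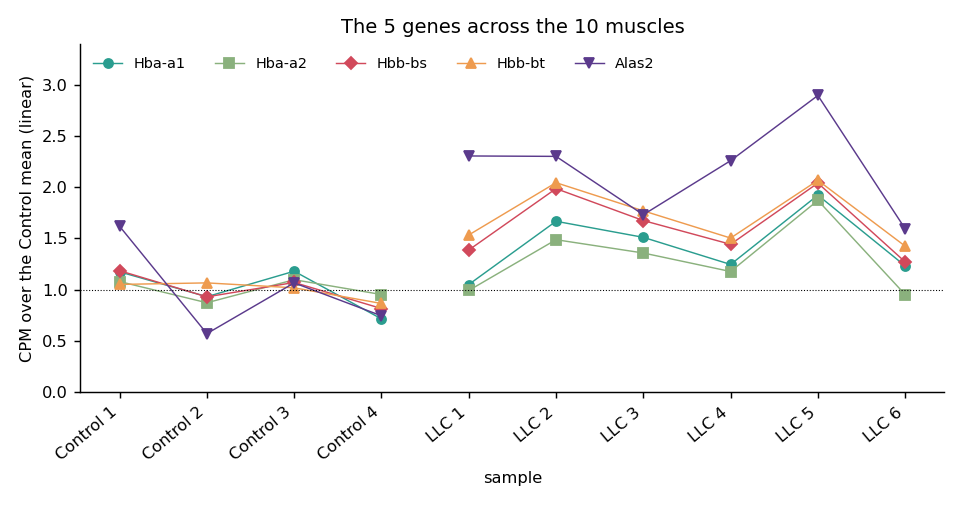
Each gene's CPM divided by its own Control mean (y axis, linear) in the 10 muscles (x axis), where the dotted line at 1 is the Control mean and the lines join values of 1 gene within a group only. The 4 globin genes follow each other from muscle to muscle, highest in LLC 5 and LLC 2, while Alas2 is high in LLC 1 and LLC 4 as well.

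The plot of values relative to the Control mean shows that the globin genes varied together among the LLC muscles. LLC 5 was the highest for all 5 genes, at 1.92, 1.87, 2.04, 2.07 and 2.90 times the Control mean for Hba-a1, Hba-a2, Hbb-bs, Hbb-bt and Alas2. LLC 6 was the lowest for all but Hba-a1, at 0.952 times the Control mean for Hba-a2 and 1.60 times for Alas2. After each group's mean was subtracted from log2 CPM, the correlation with Hbb-bs over the 10 libraries was 0.925 for Hba-a1, 0.924 for Hbb-bt, 0.889 for Hba-a2 and 0.660 for Alas2. Among 10277 other tested genes with an average log2 CPM of at least 1, 2 were more strongly correlated with Hbb-bs than Hba-a1 was, and 356 more strongly than Alas2. The most alike were Vps45 (r = 0.954), Eral1 (r = 0.935) and Arpc5l (r = 0.917), followed by Coq4, Hagh, Ptcd2, Nol12, Fbxo9, Cdipt and 2310061I04Rik with r from 0.879 to 0.915. These 10 genes differed between the groups by log2 fold changes of -0.23 to 0.17, against 0.71 for Hbb-bs. All of these correlations share the same 10 libraries and their scaling factors and are given as a description.

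Per length of annotated exon, the order of the levels was the same in both groups. In Control, Hbb-bs stood at 48.9 ± 7.89 RPKM (CPM divided by exon length), Hba-a1 at 18.2 ± 4.06, Hba-a2 at 16.6 ± 1.77, Hbb-bt at 9.82 ± 0.907 and Alas2 at 0.612 ± 0.282 RPKM (SD, n = 4). In LLC the levels were 79.9 ± 15.8 RPKM for Hbb-bs, 26.2 ± 5.90 for Hba-a1, 21.6 ± 5.72 for Hba-a2, 16.9 ± 2.77 for Hbb-bt and 1.34 ± 0.286 for Alas2 (SD, n = 6). Within a library, Hba-a1 was above Hba-a2 in 3 of 4 Control and in 6 of 6 LLC muscles, though the ranges of the 2 genes over the muscles overlapped in both groups. Hba-a2 was above Hbb-bt in all 10 libraries, with ranges that overlapped in LLC, whereas Hbb-bs lay above the others and Alas2 below them in every library. The shared sequence may lower the globin levels by an amount that differs between copies, so this order is that of the counted reads.

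The balance among the genes was compared as ratios of counts within a library, chosen after the values had been seen. Alpha-globin reads per 100 beta-globin reads numbered 55.4 to 62.7 in Control and 42.3 to 54.0 in LLC, so every LLC muscle had fewer than every Control muscle. The means were 58.1 ± 3.20 (SD, n = 4) and 48.5 ± 3.95 (SD, n = 6), a log2 difference of -0.26 (two-sided exact permutation test, p = 0.00952, which no split of 4 and 6 can go below, and 0.0381 after Benjamini-Hochberg adjustment over 4 ratios). The difference held in all 10 repeats that left out a library, with log2 differences of -0.29 to -0.22, and -0.22 without LLC 1. Between single genes, Hba-a2 over Hbb-bs differed by -0.35 (exact permutation test, two-sided, p = 0.019) and Hba-a1 over Hbb-bs differed by -0.18 (exact permutation test, two-sided, p = 0.0667).

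**Figure D3:**
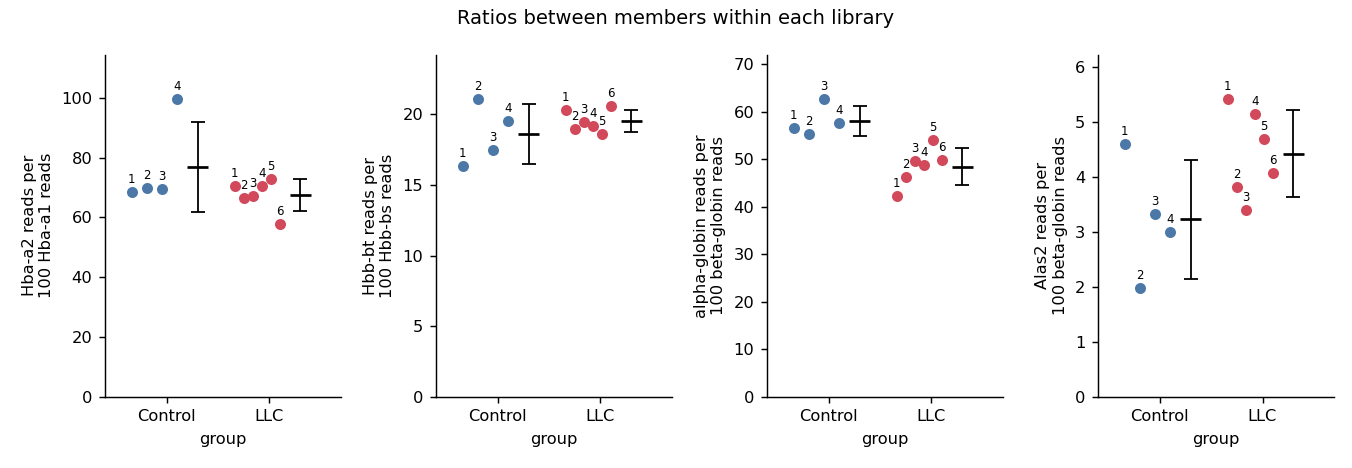
Ratios of read counts within each library (y axes, linear, from 0) in Control (blue, n = 4) and LLC (red, n = 6), with 1 numbered point per mouse and the mean and SD beside the points. Alpha-globin reads per 100 beta-globin reads are lower in all 6 LLC libraries than in any Control library, whereas the groups overlap in the other 3 ratios.

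For the proportions of the copies within a pair, the groups overlapped. Hbb-bt reads per 100 Hbb-bs reads averaged 18.6 ± 2.11 in Control and 19.5 ± 0.792 in LLC (SD, n = 4 and 6) (exact permutation test, two-sided, p = 0.333). Hba-a2 reads per 100 Hba-a1 reads averaged 76.8 ± 15.1 in Control and 67.5 ± 5.33 in LLC (SD, n = 4 and 6; exact permutation test, two-sided, p = 0.286). The wide Control spread came from Control 4, at 99.5, where the other Control muscles lay between 68.6 and 69.9. Alas2 reads per 100 beta-globin reads averaged 3.23 ± 1.08 in Control and 4.42 ± 0.791 in LLC (SD, n = 4 and 6), a log2 difference of 0.50 (exact permutation test, two-sided, p = 0.0667, adjusted p = 0.133). Without Control 1 it was 0.69 (exact permutation test, two-sided, p = 0.0238) and without LLC 3 it was 0.57 (p = 0.0476 in the same exact test).

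The other genes of heme and red cells were then read from 5 lists. Of 58 listed genes with an identifier, 31 were tested, of which 13 were higher and 18 lower in sign, with a median log2 fold change of -0.06. Past the threshold, 1 was higher and 2 were lower, directions that 1.65% and 3.99% of all tested genes showed. Counts this small are near that background, and the median lies near that of all genes tested, 0.002.

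**Figure D4:**
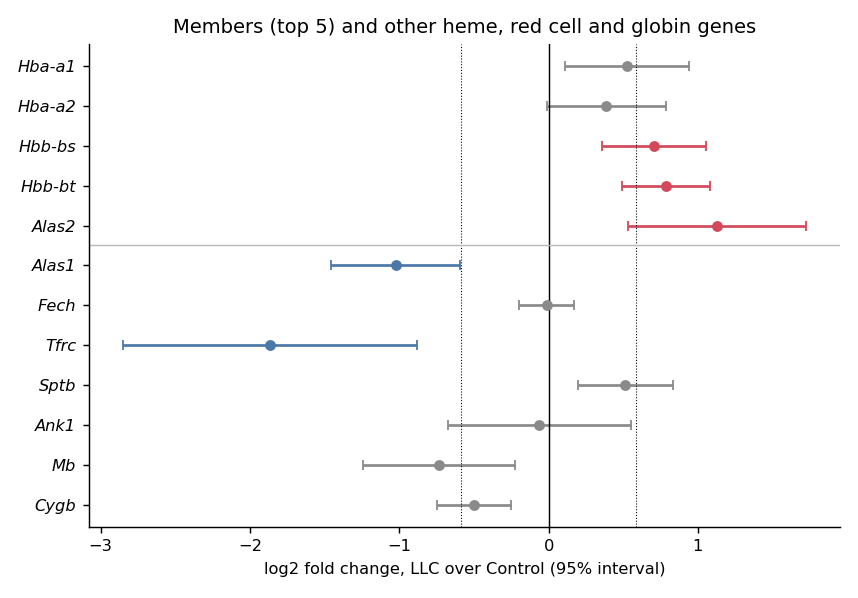
Log2 fold change of LLC over Control (x axis) with its 95% interval for the 5 genes (above the grey line) and for other heme, red cell and oxygen-binding genes. Red genes passed the threshold as higher, blue as lower, grey did not pass, and the dotted lines mark a 1.5-fold change. Alas2 lies to the right and Alas1 to the left.

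In heme synthesis, the 2 first-step enzymes went opposite ways. Alas1 fell from 120.2 ± 5.12 CPM in Control to 59.1 ± 18.3 CPM in LLC (SD, n = 4 and 6), with all LLC muscles below every Control muscle. Its log2 fold change was -1.02 ± 0.20 (SE; edgeR, Benjamini-Hochberg adjusted p = 0.0101), and the call was kept in all 10 leave-one-out fits. The 7 later enzymes did not pass, and Fech, which inserts iron in the step that forms heme, stood at 149.0 ± 3.89 and 147.7 ± 11.9 CPM. The median of the 8 genes was -0.07.

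Genes that define red cells and their precursors had few counts or none. Gata1, the GATA factor of erythroid cells, had no count in any of the 10 libraries, which allows up to 3 counts in each. Klf1, a factor that drives beta-globin transcription, had 2 counts over the 4 Control and 6 over the 6 LLC libraries. Slc4a1, the red cell anion exchanger, had 6 and 23 counts. These counts show how little RNA of these genes was sampled in either group. Nfe2, a factor of erythroid cells, megakaryocytes and neutrophils, had 4 and 30. Together the 27 genes of these lists that were under the filter had 48 counts in Control, of 80289053, and 111 in LLC, of 108319756, and 10 of the 27 had none. By total, 9 were more frequent in LLC and 8 less frequent, and with no filter none of them passed in edgeR's test, where Nfe2 had a Benjamini-Hochberg adjusted p of 0.0828. At an unadjusted p of 0.05 or less there were 3, among them Epor and Nfe2, and the share of all genes in that fit was not counted. The 7 embryonic and theta globins had at most 2 counts in a library, and 5 of them had none.

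Among late erythroid genes, 12 were tested, with a median log2 fold change of 0.04. Past the threshold, 1 was higher and 1 was lower. The latter was Tfrc, the transferrin receptor by which cells take up iron, which fell from 258.9 ± 17.9 to 71.1 ± 47.7 CPM (SD, n = 4 and 6). Its log2 fold change was -1.87 ± 0.45 (SE; edgeR, Benjamini-Hochberg adjusted p = 0.0304). This call was kept in 4 of the 10 leave-one-out fits and was lost without any 1 of the Control libraries, LLC 5 or LLC 6, with edgeR adjusted p-values of 0.0618 to 0.0831. Tfrc is expressed by many cell types besides red cell precursors.

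Red cell membrane genes that passed the filter are also expressed in muscle. Of 17 listed, 7 were tested and none passed the threshold in edgeR or DESeq2, with a median log2 fold change of -0.03. At an unadjusted p of 0.05 or less in edgeR's test 2 were higher, Sptb and Xk, as were 12.7% of all tested genes. Sptb, the beta-spectrin shared by red cells and muscle, stood at 249.7 ± 19.6 CPM in Control and 356.5 ± 76.8 CPM in LLC (SD, n = 4 and 6; edgeR, Benjamini-Hochberg adjusted p = 0.0581). Ank1, ankyrin, stood at 239.9 ± 15.3 and 229.8 ± 78.8 CPM. Of the erythroid transcription factors, 4 were tested and none passed in edgeR or DESeq2. Lmo2 and Zfpm1 were lower at an unadjusted p of 0.05 or less in edgeR's test. The share of all genes lower at that p was not counted, so these 2 are not read as a result. The most abundant was Ldb1 at 20.3 ± 0.649 and 19.3 ± 3.78 CPM.

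Of the genes that handle iron and break down heme none passed in edgeR's test. At an unadjusted p of 0.05 or less in that test 2 were higher, as were 12.7% of all tested genes. Lower at that p were 3, for which the share over all genes was not counted. Under DESeq2 1 passed as higher, the heme oxygenase gene Hmox1, as did 3.06% of all genes. Of 15 tested, 9 were higher and 6 lower in sign, with a median log2 fold change of 0.12. The ferritin chains Fth1 and Ftl1 stood at 918 ± 72.3 and 60.2 ± 3.32 CPM in Control and at 1028 ± 146 and 90.95 ± 37.2 CPM in LLC (SD, n = 4 and 6). The other oxygen-binding globins went the opposite way to hemoglobin in sign. Mb, myoglobin of muscle fibers, stood at 4048 ± 197 and 2434 ± 809 CPM and did not pass (edgeR, Benjamini-Hochberg adjusted p = 0.0812), although it did without LLC 1 (edgeR adjusted p = 0.0207) or LLC 2 (0.0404) and under the DESeq2 Wald test (log2 fold change -0.72, adjusted p = 0.0293). Cygb, cytoglobin, stood at 7.55 ± 0.412 and 5.33 ± 0.660 CPM, with an edgeR adjusted p of 0.0238 and a fold change under the 1.5-fold threshold.

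**Figure D5:**
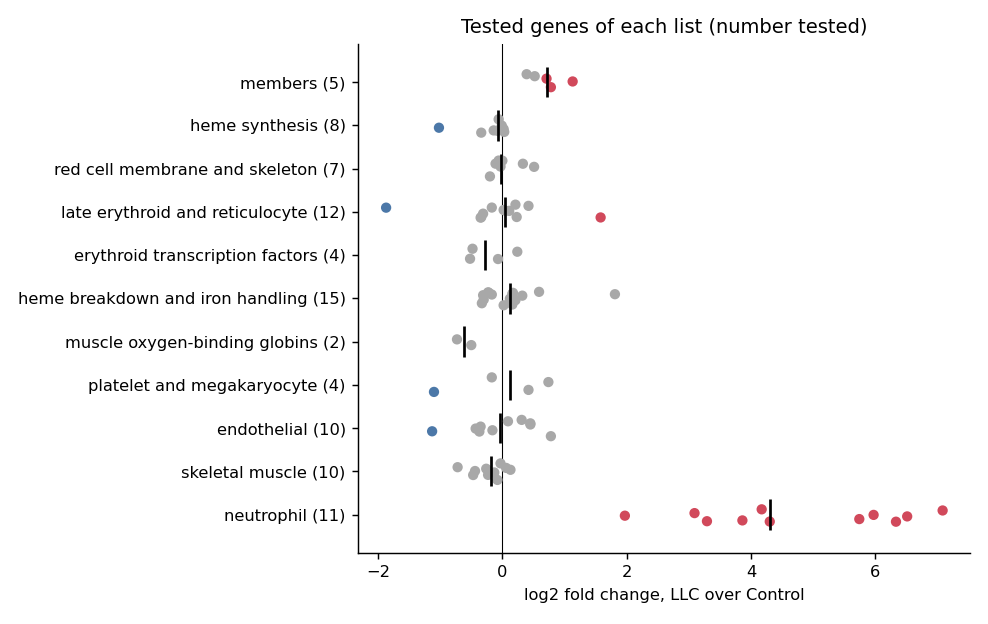
Log2 fold change of LLC over Control (x axis) for each tested gene of the lists named on the y axis, with the number tested in brackets. Points are red where higher and blue where lower past the threshold and grey otherwise, spread vertically for legibility only, and black bars are medians. The 5 genes lie to the right of 0 and most heme and red cell genes near 0. The positions of the 11 neutrophil genes are not read as a result, since some passed the filter on low counts through their LLC counts alone.

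Markers of other blood and vessel cells did not share a direction. The 15 neutrophil markers summed to 1.48 to 3.55 CPM in Control and 38.2 to 82.6 CPM in LLC, without overlap. Of the 15, 11 passed the filter on low counts, some of them through their LLC counts alone, so their directions are not counted here. Platelet markers summed to 5.92 to 6.41 CPM and 5.16 to 6.96 CPM, and 1 of the 4 tested passed, as Pf4 fell from 1.24 ± 0.260 to 0.569 ± 0.217 CPM (SD, n = 4 and 6; edgeR, Benjamini-Hochberg adjusted p = 0.0347). The B cell gene Ighm fell from 71.9 ± 23.2 to 26.3 ± 14.1 CPM (SD, n = 4 and 6; edgeR, Benjamini-Hochberg adjusted p = 0.0321). The calls of Pf4 and Ighm were kept in 4 and 3 of the 10 leave-one-out fits. T cell markers were all under the filter.

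Vessel and muscle markers overlapped between the groups as sums. Endothelial markers summed to 321.7 to 409.3 CPM and 334.0 to 372.1 CPM, with 5 of 10 higher and 5 lower in sign. At an unadjusted p of 0.05 or less in edgeR's test 4 were higher, as were 12.7% of all tested genes. Another 4 were lower, for which the share over all genes was not counted. The 1 call was Kdr, the VEGF receptor, which fell from 63.1 ± 11.5 to 28.8 ± 10.6 CPM (SD, n = 4 and 6). Its edgeR Benjamini-Hochberg adjusted p was 0.0227, and the call was kept in 6 of the 10 leave-one-out fits. Cdh5, Emcn and Tie1 were lower and Vwf higher, with edgeR adjusted p-values of 0.0194 to 0.0392 and fold changes under the 1.5-fold threshold. The muscle markers summed to 137400 to 146100 CPM and 97420 to 151000 CPM. None of the muscle markers passed in edgeR or DESeq2. At an unadjusted p of 0.05 or less in edgeR's test 3 were lower, Acta1, Myh1 and Mylpf, and none was higher. The share of all genes lower at that p was not counted, so these 3 are not read as a result. The part of neutrophil and vessel content in the hemoglobin and Alas2 values was not tested. With mitochondrial genes left out of the table, the log2 fold changes of the 5 genes were 0.52, 0.39, 0.71, 0.78 and 1.13, the same as with them.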

How the data were processed

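Total RNA of 10 muscles was made into strand-specific libraries. The authors mapped paired reads to mm10 with TopHat2 and counted them with HTSeq at its default settings, for RefSeq genes by the description, although the deposited counts list Ensembl identifiers. The annotation release is not given in the sources used here, and the strand setting is not named beyond those default settings. The authors normalized with DESeq2. The deposited values are raw counts of reads in whole numbers.

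Counts were tested with edgeR 4.0.16 (R 4.3.3) after filterByExpr (minimum count 10) and TMM scaling, using the quasi-likelihood test with group as the only term and Benjamini-Hochberg adjustment over 12690 genes. Levels are given in CPM after TMM scaling, with a prior count of 2 for log2 CPM. Alternatives were DESeq2 1.42.0, limma voom 3.58.1 with sample quality weights, other scalings and filters, no fold threshold, the replicate number as a block, added pair counts and each library left out. On simulated counts of 12521 genes, 200 of them changed 4-fold, edgeR recovered 186 with 6 false calls. Ratios were compared by exact permutation over 210 splits, two-sided.

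No pair of replicate libraries agreed within sampling noise (chi-square per degree of freedom 3.71 to 8.11 in Control, 7.92 to 181.2 in LLC). Each library is labelled as a separate sample. Counting error and the floor of 3 counts cover counting only.

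The 5 genes and all lists were chosen with earlier results of these data known. Named from each list were the genes past the threshold or, where fewer than 2 passed, the 2 most abundant tested. Genes under the filter, Xk, Lmo2, Hmox1, Apex2, Emcn, Tie1, Vwf, Acta1, Myh1, Mylpf and Tnnc2 were named after their values were seen. Symbols were matched for 37607 identifiers. Small RNA libraries were not analysed here. Some listed genes are not reported here by name. Sequences are from RefSeq (promoters, GRCm38.p6) and GENCODE M21 (coding).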

Additional observations from a re-analysis of the deposited data

Results flagged for a closer look

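In 23 measures and 46 groups of samples, the most extreme sample was compared with its nearest neighbor as a share of the group's range. Such a rule picks about 1 in 20 groups by chance, 2.3 of the 46, and it picked 2. Control 4 had 99.48 Hba-a2 reads per 100 Hba-a1 reads, with the other Control muscles at 68.6 to 69.89 (gap ratio 0.958). Its Hba-a1 count, 193, was the lowest of the 10, and its Hba-a2 count was 192. The summed skeletal muscle markers of LLC 1 were 97420 CPM, with the other LLC muscles at 134600 to 151000 CPM (gap ratio 0.694). LLC 1 also had the lowest alpha-globin reads per 100 beta-globin reads, at 42.3, and the highest Alas2 reads per 100 beta-globin reads, at 5.41.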

How the results depend on the processing

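Each of the 5 genes was refitted under 20 alternatives, and all 100 values were positive. Hba-a2 (log2 0.25 to 0.47) never passed, and Hba-a1 (0.39 to 0.61 with each library left out) passed only without LLC 1. With each library left out, Hbb-bs ranged from 0.62 to 0.80, Hbb-bt from 0.72 to 0.83 and Alas2 from 0.93 to 1.46. The replicate numbers do not pair the samples (correlations of same-numbered deviations of -0.0292, 0.00932, -0.0814 and 0.126), and the fit with the replicate block is given for completeness: all-gene calls fell from 715 to 112, and Hbb-bs, Hbb-bt and Alas2 had log2 fold changes of 0.70, 0.77 and 1.16 with edgeR adjusted p-values of 0.140, 0.0546 and 0.180. With at least 10 counts in every sample 475 genes passed, and with each library left out 415 to 966, while DESeq2 called 1052. The 5 red cell and heme lists, with 1 higher and 2 lower calls, had 0 higher under that filter and 0 of either under the block, and 1 to 2 lower with each library left out. The alpha to beta ratio, with alternatives chosen after seeing the data, differed by -0.18 for Hba-a1 over Hbb-bs and -0.25 for Hba-a1 over Hbb-bt (exact permutation p = 0.0667 and 0.105), where the call was lost. Fech turned to 0.04 with limma voom, 0 without Control 3 and 0.04 without LLC 1, Ank1 to 0.12 with limma voom and 0.13 without LLC 1, and Gp1ba, a platelet gene, to 0.03 with limma voom, and with each library left out Fech ran from -0.03 to 0.04 and Ank1 from -0.15 to 0.13. Of 603 values for 31 other named genes, 554 kept direction and call, 38 lost the call, 5 gained it and 6 reversed. The cause of these changes was not tested. Other scalings moved the median of all genes to 0.0125 (median of ratios) and -0.0326 (upper quartile) on the log2 scale.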
